A study of Mus musculus with 14 samples.

Results

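GABA-A receptor subunit genes were followed through RNA-seq and ribosome profiling of mouse cortex with and without Fmr1. The 7 genes described are Gabra2, Gabra3, Gabra4, Gabra5, Gabrb1, Gabrb2 and Gabrd, chosen by symbol from a count table of 23412 genes. All 7 were present in the table and passed the filter on low counts in each comparison. Controls carried a CamK-driven Cre and homozygous floxed Rpl22 (Rpl22flox/flox;CamKCre+, a RiboTag background), and knock-out (KO) mice carried the same 2 alleles with Fmr1 lost (Fmr1X-Y; Rpl22flox/flox;CamKCre+). Total RNA was sequenced from 4 controls (mice 1, 3, 6 and 8) and 4 KO animals (mice 2, 4, 5 and 7). Ribosome footprints, the mRNA stretches that ribosomes shield from nuclease, were sequenced from 3 control mice (1, 3 and 9) and 3 KO mice (2, 4 and 10). Strain and age are not given in the sources used here. Whether a difference between the genotypes, that of Gabra2 included, comes with Fmr1 loss or with strain background was thus not tested. The protocols name no pull-down of tagged ribosomes, so the values stand for whole cortical tissue although the Cre is neuronal, and fewer cells of a type cannot be told apart from less RNA per cell.

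GABA-A receptors are pentameric chloride channels opened by the transmitter GABA, and they carry most fast inhibition in the cortex. Alpha subunits, which contribute to the GABA and benzodiazepine binding sites, set much of a receptor's kinetics and location, beta subunits are needed for assembly and GABA binding, and delta replaces gamma in receptors that lie outside synapses. Fmr1 encodes FMRP, an RNA-binding protein associated with translating ribosomes whose loss causes fragile X syndrome.

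Levels are given as CPM, a library's counts scaled to a common total with TMM factors, and a gene is called when its edgeR quasi-likelihood p-value is under 0.05 after Benjamini-Hochberg adjustment across every gene in the fit. RNA libraries held 8847547 to 11371851 counts and footprint libraries 4124065 to 6033030 counts. The labels' check held in each library. Fmr1 RNA was at 71.3 to 89.9 CPM in controls and 18.1 to 23.4 CPM in KO mice, and Fmr1 footprints were at 111 to 115 CPM in controls and 5.82 to 8.54 CPM in KO mice. Some libraries of 1 genotype were nearly alike. The RNA of KO mice 2, 4 and 7 gave pairwise chi-square values over their degrees of freedom between 1.18 and 1.32, against 1.99 to 11.8 for the other 9 RNA pairs of the same genotype, and footprint pairs of the same genotype lay between 1.15 and 1.42. Where these close libraries are not separate preparations of separate tissue, the p-values measure mainly technical spread, and RNA results are therefore also given with KO mice 2, 4 and 7 summed to 1 library.

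Gabra2, which encodes the alpha2 subunit found at many synapses and enriched at the axon initial segment of pyramidal cells, was the subunit that fell in both assays. Its RNA was at 148 CPM in control mouse 1, 164 CPM in control mouse 3, 119 CPM in control mouse 6 and 86.9 CPM in control mouse 8. In KO mice it was at 52.3 CPM in mouse 2, 55.3 CPM in mouse 4, 49.7 CPM in mouse 5 and 55.1 CPM in mouse 7. The genotypes did not overlap, and the controls were spread over a wider range than the KO mice. On the log2 scale Gabra2 RNA fell by 1.28 ± 0.14 (SE, adjusted p = 0.000339, edgeR), to 41.1% of the control level. Of 13507 genes tested in RNA, 7.41% were called, and 14 genes including Gabra2 had a fall of at least this size. Its log2 fold change was -1.31 (adjusted p = 0.0156, edgeR) after summing KO mice 2, 4 and 7, and when control mice 1 and 3 were summed too it was -1.21 (adjusted p = 0.0312, edgeR).

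Ribosome footprints on Gabra2 were also lower in KO mice. They were at 239 CPM in control mouse 1, 232 CPM in control mouse 3 and 243 CPM in control mouse 9, against 73.8 CPM in KO mouse 2, 73.0 CPM in KO mouse 4 and 69.1 CPM in KO mouse 10. The 3 libraries of each genotype lay close together and far from the other genotype. Gabra2 footprints fell by 1.72 ± 0.052 (SE, adjusted p = 8.17e-50, edgeR), to 30.3% of control. In footprints 25.5% of 12158 genes were called, and 12 genes including Gabra2 fell by at least this much. The difference between the footprint and RNA changes, tested as translational efficiency further on, was not called (adjusted p = 0.156, edgeR).

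**Figure D1:**
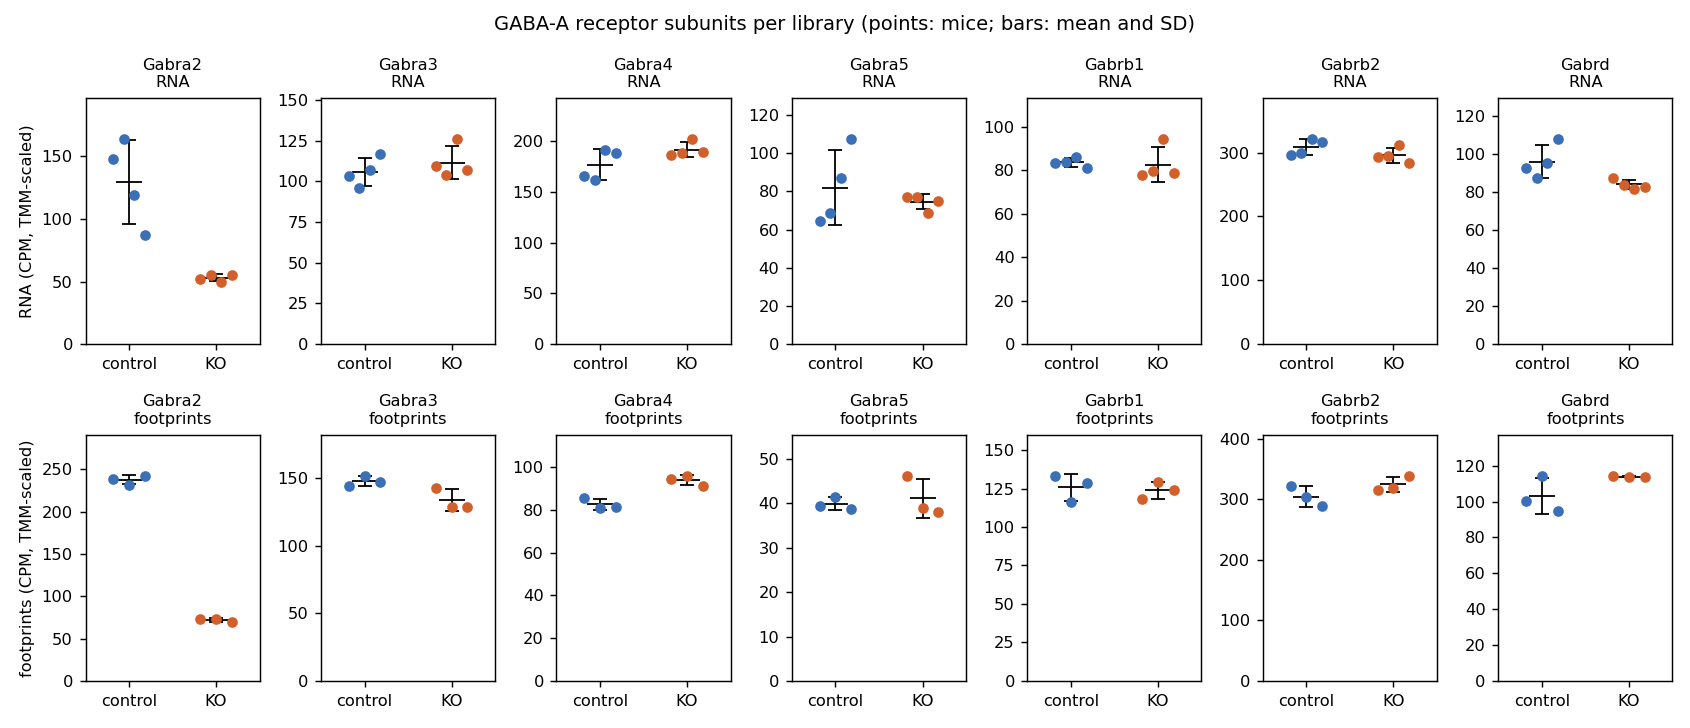
CPM of the 7 subunit genes in each library, RNA in the upper row and footprints in the lower row, with each y axis starting at 0. Points are mice, and black bars give the mean and SD. Gabra2 is between 86.9 and 164 CPM in control RNA and between 49.7 and 55.3 CPM in KO RNA, and the other genes differ far less between genotypes.

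Sample titles open with a prefix that groups mice 1 and 2, mice 3 and 4, and mice 5 to 8 in RNA, and it holds control and KO mice in each case. Gabra2 RNA in KO mice was at 35.4% of control within the first pair, 33.8% within the second and 50.9% within mice 5 to 8. Within the 3 footprint prefixes the KO level was 30.9% (mice 1 and 2), 31.5% (mice 3 and 4) and 28.5% (mice 9 and 10) of control. The smaller RNA difference in mice 5 to 8 came with lower controls, since the KO level was between 49.7 and 55.3 CPM in every set. The difference between mice 5 to 8 and mice 1 to 4 in the log2 fold change was 0.57 ± 0.16 (SE, unadjusted p = 0.00252, adjusted p = 0.174, edgeR interaction term), which did not pass the threshold over all genes. In control mouse 8, the lowest control for Gabra2, Fmr1 RNA was also the lowest of the controls at 71.3 CPM. This library differed across many genes. Its chi-square over degrees of freedom was 10.6 and 11.8 against control mice 1 and 3 and 4.03 against control mouse 6. It also had the highest Gabra5 and Gabrd RNA of the controls, at 107 and 108 CPM. Whether Gabra2 goes with the Fmr1 level was not tested.

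**Figure D2:**
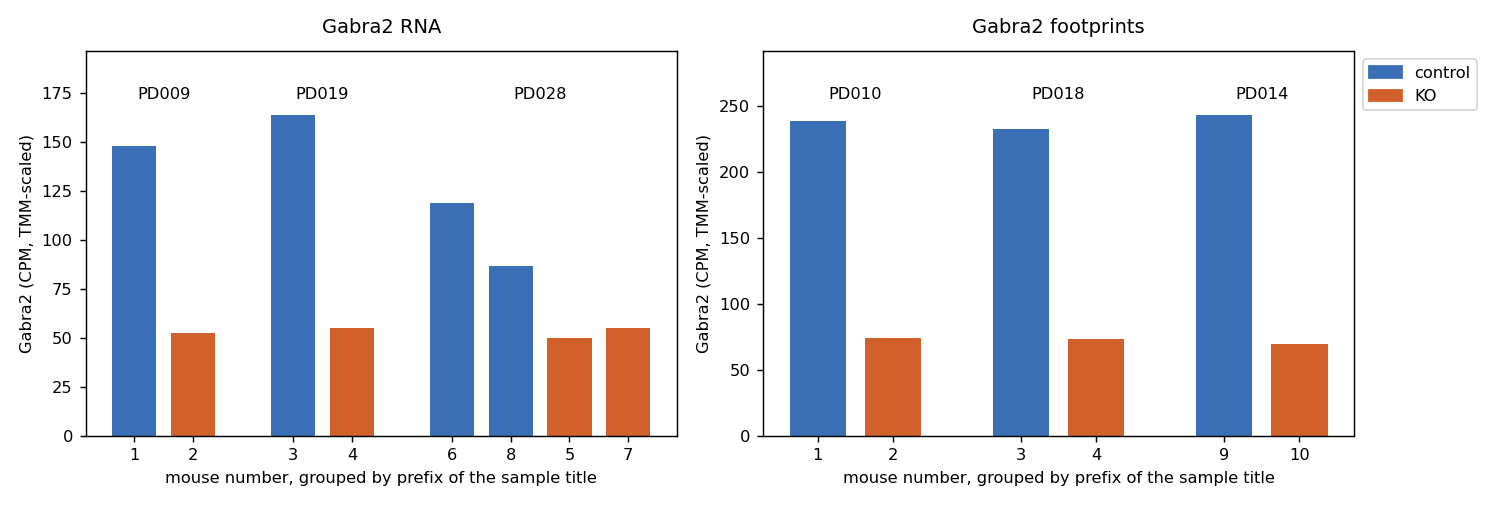
Gabra2 CPM of every mouse, grouped by the prefix of the sample title, for RNA (left) and footprints (right), with bars starting at 0. Within each prefix both control and KO mice are present, and every KO bar is below every control bar.

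In the RefSeq gene order (GRCm38.p6), Gabra2 lies on chromosome 5 in a cluster of GABA-A receptor genes with Gabrg1 on one side and, past Cox7b2, Gabra4 and Gabrb1 on the other. Gabrg1, for the gamma1 subunit, was the only neighbour tested in this run that was called in RNA, at -0.25 ± 0.068 (SE, adjusted p = 0.0364, edgeR), and this call ended after summing KO mice 2, 4 and 7 (-0.21, adjusted p = 0.330, edgeR) or fitting the title prefix as a block (-0.25, adjusted p = 0.0527, edgeR). Its footprints were at 0.16 ± 0.081 (SE, adjusted p = 0.150, edgeR). Gabra4 and Gabrb1, on the far side, had RNA fold changes of 0.11 ± 0.064 and -0.020 ± 0.067 (SE, adjusted p = 0.304 and 0.893, edgeR). Outside the receptor genes, Gnpda2 and Commd8 rose in footprints by 0.45 ± 0.12 and 0.42 ± 0.090 (SE, adjusted p = 0.00288 and 0.000141, edgeR). Cox7b2 had too few counts to be tested. None of the tested genes on either side had a fall near the size of that of Gabra2 in either assay, which is a description, as the difference between genes was not tested.

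**Figure D3:**
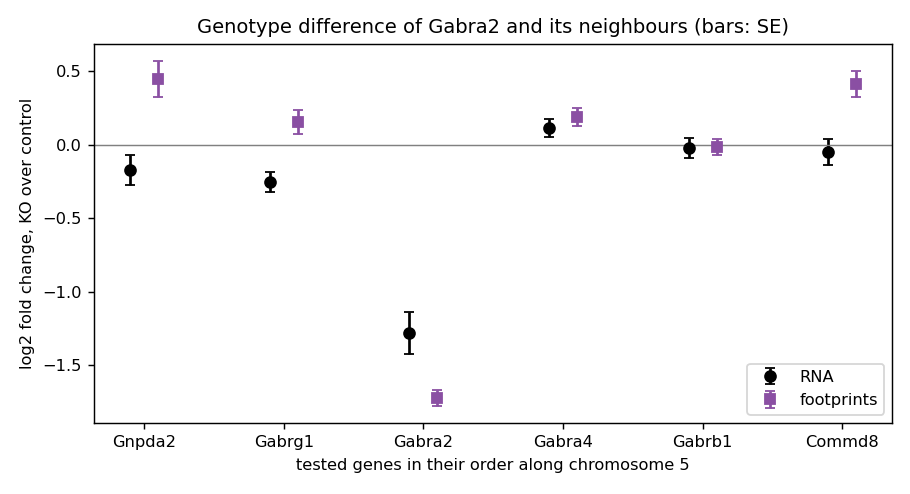
Log2 fold change (KO over control, with SE) in RNA and footprints for Gabra2 and the tested genes on either side of it, in their order along chromosome 5. Gabra2 is at -1.28 in RNA and -1.72 in footprints, and the other genes lie between -0.25 and 0.45.

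The sequences upstream of the transcript starts of Gabra2 and Gabra4 are shown because these alpha genes, on the same strand of the same cluster, moved in opposite directions in footprints. The Gabra4 footprint call was lost in 6 of 13 alternatives, and Gabra4 RNA was not called (adjusted p = 0.304, edgeR). Whether the upstream sequences have a part in these differences was not tested. They are RefSeq reference sequences, not those of the mice studied. The 250 bases before the start of Gabra2 are chr5:71095850-71096099, and those before the start of Gabra4 are chr5:71658309-71658558, both on the minus strand of GRCm38.p6 and written 5′ to 3′ in the direction of transcription. Capitals mark matches to the GC box, GGGCGG on either strand.
Gabra2: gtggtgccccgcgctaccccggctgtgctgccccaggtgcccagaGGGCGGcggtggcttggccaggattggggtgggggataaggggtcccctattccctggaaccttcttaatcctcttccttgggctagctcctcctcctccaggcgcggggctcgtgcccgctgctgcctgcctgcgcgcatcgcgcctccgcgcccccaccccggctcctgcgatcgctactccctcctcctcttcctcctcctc
Gabra4: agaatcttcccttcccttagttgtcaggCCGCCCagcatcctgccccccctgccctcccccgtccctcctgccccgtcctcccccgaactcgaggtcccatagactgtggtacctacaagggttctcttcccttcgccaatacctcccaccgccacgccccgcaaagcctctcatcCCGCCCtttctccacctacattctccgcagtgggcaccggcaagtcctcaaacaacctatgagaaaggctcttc
The Gabra2 sequence held 1 GC box and 18 CpG dinucleotides, and the Gabra4 sequence held 2 GC boxes and 12 CpG dinucleotides. Over all 32851 RefSeq windows of the same length, 32.7% held a GC box and the median number of CpG dinucleotides was 6. Neither sequence held the TATA box TATAAA (12.4% of all windows) or the cyclic AMP response element TGACGTCA (1.55%). All motifs were searched on both strands, and only GC boxes matched, so no match overlapped one of another motif. Gabrb1 is transcribed from the opposite strand, and its first RefSeq start lies 388 bases inside the start of Gabra4, so the first transcribed bases of these genes overlap. The RNA libraries keep the strand, but the strand setting used for counting is not given in the sources used here.

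The other alpha subunits differed by much less than Gabra2. Gabra3 encodes alpha3, a synaptic subunit also present on cortical interneurons and in deep layers. Its RNA lay between 96.2 and 117 CPM in controls and between 104 and 126 CPM in KO mice, with overlapping genotypes, and KO over control was 0.073 ± 0.073 in log2 (SE, adjusted p = 0.599, edgeR). Its footprints were at 144, 152 and 147 CPM in control mice 1, 3 and 9 and at 143, 129 and 129 CPM in KO mice 2, 4 and 10. Gabra3 footprints fell by 0.15 ± 0.051 (SE, adjusted p = 0.0196, edgeR), with KO mouse 2 close below the lowest control. Leaving out mouse 3 (adjusted p = 0.102, edgeR), 4 (0.117) or 10 (0.118) ended this call, as did DESeq2 (0.126), plain library sizes (0.183) and a fit that included the RNA libraries (0.207).

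Gabra4 encodes alpha4, which pairs with delta in receptors outside synapses. Its RNA was between 162 and 192 CPM in controls and between 186 and 202 CPM in KO mice. KO mice 2, 4 and 7 lay in the upper part of the control range and KO mouse 5 above it. Footprints were at 85.7, 80.9 and 81.5 CPM in control mice 1, 3 and 9 and at 94.6, 96.1 and 91.3 CPM in KO mice 2, 4 and 10, without overlap. Gabra4 footprints rose by 0.19 ± 0.063 (SE, adjusted p = 0.0185, edgeR). Leaving out mouse 2 (adjusted p = 0.0521, edgeR), 3 (0.0806), 4 (0.0749) or 9 (0.0525) ended the call, as did DESeq2 (0.113) and a fit that included the RNA libraries (0.113). In RNA Gabra4 was not called over all mice (adjusted p = 0.304, edgeR), but among mice 1 to 4 alone it rose by 0.20 (adjusted p = 0.00246, edgeR).

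Gabra5 encodes alpha5, known for tonic inhibition in hippocampus and deep cortical layers. Its RNA varied widely among controls, at 64.7 CPM in mouse 1, 68.8 CPM in mouse 3, 87.0 CPM in mouse 6 and 107 CPM in mouse 8, while the KO mice lay between 68.8 and 77.2 CPM. The KO range was thus inside the control range. The RNA fold change over all mice was -0.14 ± 0.12 (SE, adjusted p = 0.549, edgeR), with a 95% interval of -0.40 to 0.13. It turned with the set of mice, from 0.21 in mice 1 to 4 (adjusted p = 0.0176, edgeR) to -0.43 in mice 5 to 8 (adjusted p = 0.103, edgeR), and was 0.026 without control mouse 8. The difference between the sets was -0.64 ± 0.13 (SE, unadjusted p = 0.000151, adjusted p = 0.128, edgeR). Over all 13507 genes this interaction called none, with 1790 at an unadjusted p-value under 0.05. Gabra5 footprints were at 39.4, 41.6 and 38.8 CPM in control mice 1, 3 and 9 and at 46.3, 39.0 and 38.1 CPM in KO mice 2, 4 and 10 (0.035 ± 0.093 SE, adjusted p = 0.828, edgeR).

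Beta subunits form part of the GABA binding site and carry the receptor to the cell surface. Gabrb1 encodes beta1, and its RNA was between 81.2 and 86.3 CPM in controls and at 77.7, 79.5, 94.5 and 78.9 CPM in KO mice 2, 4, 5 and 7. Its footprints were between 116 and 133 CPM in controls and between 118 and 129 CPM in KO mice. The genotypes overlapped in both assays, and the 95% intervals of the log2 fold change ran from -0.16 to 0.12 in RNA and from -0.13 to 0.092 in footprints. Gabrb2 encodes beta2, a common beta subunit of synaptic receptors. Its RNA was between 297 and 321 CPM in controls and between 284 and 312 CPM in KO mice (-0.062 ± 0.052 SE, adjusted p = 0.524, edgeR). Gabrb2 footprints rose by 0.098 ± 0.037 (SE, adjusted p = 0.0374, edgeR), although the genotypes overlapped, with 322, 304 and 289 CPM in control mice 1, 3 and 9 and 316, 319 and 339 CPM in KO mice 2, 4 and 10. Leaving out mouse 3 (adjusted p = 0.0843, edgeR), 4 (0.0520), 9 (0.323) or 10 (0.306) ended this call, as did limma voom (0.0586), DESeq2 (0.213) and a fit that included the RNA libraries (0.334). Without mouse 9 or 10 the fold change itself shrank to 0.057 and 0.063.

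Gabrd encodes delta, the subunit of high-affinity receptors outside synapses that carry tonic inhibition. Its RNA was at 92.7, 87.4, 95.1 and 108 CPM in control mice 1, 3, 6 and 8 and at 87.5, 83.8, 81.7 and 82.7 CPM in KO mice 2, 4, 5 and 7. Only the highest KO mouse reached the lowest control. Its footprints were at 100.3, 114 and 95.0 CPM in control mice 1, 3 and 9 and at 114, 114 and 114 CPM in KO mice 2, 4 and 10. Control mouse 3 was level with the KO mice. Gabrd was not called in RNA (-0.19 ± 0.066 SE, adjusted p = 0.0919, edgeR) or in footprints (0.14 ± 0.059 SE, adjusted p = 0.0776, edgeR). Its footprint call appeared without mouse 3 (adjusted p = 0.00715, edgeR) and on plain library sizes (0.00680). Without mouse 9 the footprint fold change shrank to 0.069 (adjusted p = 0.472, edgeR).

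**Figure D4:**
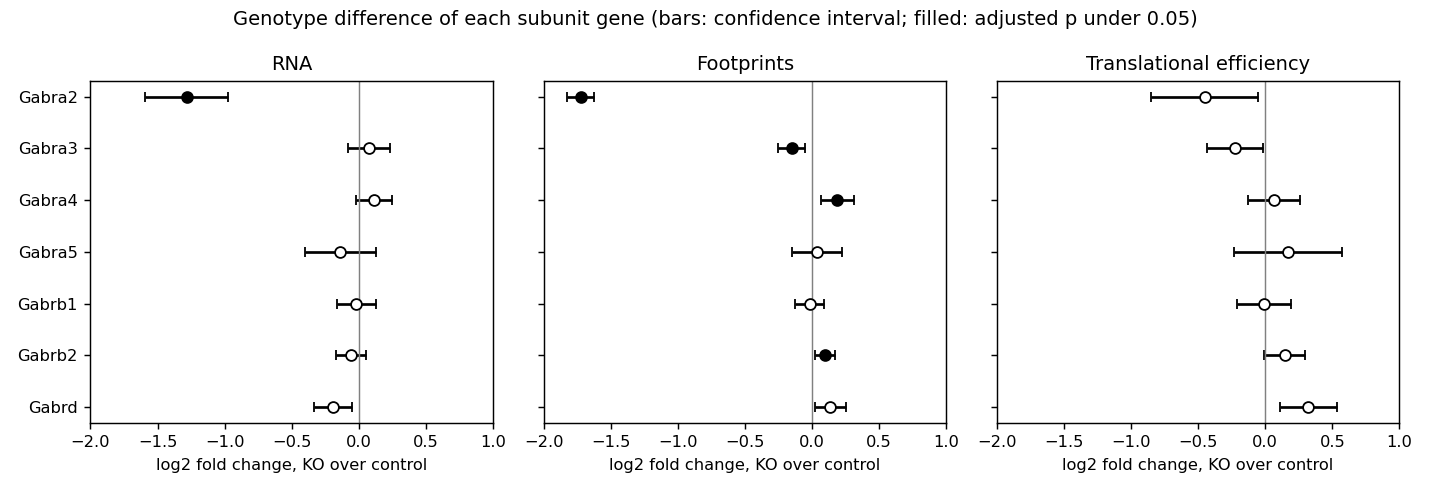
Log2 fold change (KO over control) with its 95% interval for each subunit gene in RNA, footprints and translational efficiency. Filled points passed an adjusted p-value of 0.05: 1 gene in RNA, 4 in footprints and none in translational efficiency.

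In all, 1 of the 7 genes was called in RNA, where 7.41% of genes were (3.53% higher and 3.88% lower), and 4 in footprints, where 25.5% were. Among the 4, Gabra2 and Gabra3 were lower (13.6% of all genes were called lower) and Gabra4 and Gabrb2 higher (11.9% were called higher). The median log2 fold change of the 7 genes was -0.062 in RNA, -0.0012 over all genes tested, and 0.035 in footprints, 0.0054 over all genes tested. With DESeq2, and with all 14 libraries in the same fit, only Gabra2 remained called in footprints.

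The next comparison asked whether footprints changed relative to RNA, as translational efficiency (TE), tested as the interaction of genotype and assay over all 14 libraries. Among 12145 genes tested 7.81% were called (3.40% higher and 4.41% lower), and none of the 7 subunit genes was at the adjusted threshold, while Gabra2, Gabra3 and Gabrd had an unadjusted p-value under 0.05 (edgeR). DESeq2 also called none, and limma voom called Gabra2 and Gabrd. Gabra2 was at -0.45 ± 0.19 (SE, adjusted p = 0.156, edgeR), and at -0.30 without control mouse 8 (adjusted p = 0.0965, edgeR). In mice 1 to 4, whose numbers occur in both assays, Gabra2 was at -0.16 with mouse as a block (adjusted p = 0.294, edgeR). Gabra3 was at -0.23 ± 0.10 (SE, adjusted p = 0.177, edgeR) and, with mouse as a block, fell by 0.24 (adjusted p = 0.0495, edgeR). Mice 1 to 4 alone gave Gabra3 the same fall of 0.24 (adjusted p = 0.0498, edgeR), so this call was not particular to the block. Gabrd was at 0.32 ± 0.10 (SE, adjusted p = 0.0557, edgeR), and it was called without mouse 3 (0.45, adjusted p = 0.00974, edgeR), on plain library sizes (0.39, adjusted p = 0.0215), with upper quartile factors (0.36, adjusted p = 0.0323) and with limma voom (0.27, adjusted p = 0.0290). With mouse as a block Gabrd was at 0.14 (adjusted p = 0.372, edgeR), and in mice 1 to 4 alone it was at 0.13 (adjusted p = 0.387, edgeR). Gabra4, Gabra5, Gabrb1 and Gabrb2 lay between -0.0084 and 0.17, with adjusted p-values of 0.240 to 0.971 (edgeR).

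Levels were not compared between subunits because coding lengths were not used here. In the ratio of footprint to RNA CPM, gene length cancels only where both assays were counted over the same region, which is not given in the sources used here, so the order of the subunits by this ratio may depend on the regions counted. In controls the ratio of the group means was 1.84 for Gabra2, 1.50 for Gabrb1, 1.40 for Gabra3, 1.08 for Gabrd, 0.989 for Gabrb2, 0.487 for Gabra5 and 0.467 for Gabra4. The median over 12145 genes was 0.912. In the control mice with both assays, mice 1 and 3, Gabra2 (1.61 and 1.42), Gabrb1 (1.60 and 1.39) and Gabra3 (1.40 and 1.58) overlapped. Gabrd (1.08 and 1.31) and Gabrb2 (1.09 and 1.01) also overlapped. Gabra4 (0.517 and 0.499) and Gabra5 (0.610 and 0.604) lay below the others in both mice, with 15.9% and 17.4% of genes below them by the group means. The same genes were at the low end in KO mice 2 and 4, with 0.508 and 0.510 for Gabra4 and 0.602 and 0.505 for Gabra5. The Gabra2 ratio was 1.41 and 1.32 in KO mice 2 and 4. Control mice 6 and 8, sequenced in RNA only, had less Gabra2 RNA than mice 1 and 3, and the ratio of the control group means was above that of either mouse.

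**Figure D5:**
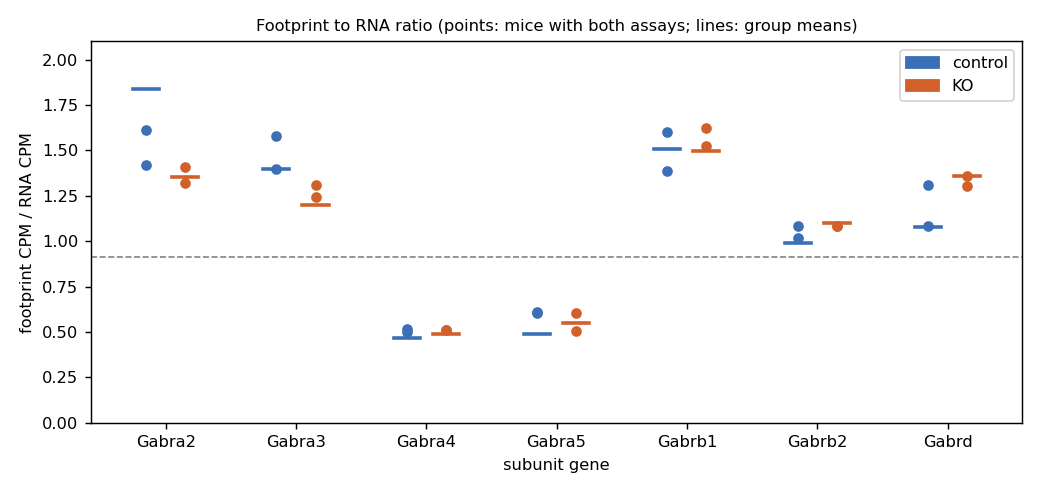
Footprint CPM divided by RNA CPM for each subunit gene, with points for the mice that gave both assays (control 1 and 3, KO 2 and 4), short lines for the ratio of group means and a dashed line at the median of all genes, 0.912. Gabra4 and Gabra5 lie between 0.467 and 0.610 and every other gene lies above the dashed line.

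RNA counts were deposited in a second set of columns, whose headers end in exon and whose library totals are larger. The first set held 52.9% to 56.7% of the second set's totals. For the subunits this share was 68.0% ± 0.662 for Gabra2, 43.2% ± 2.95 for Gabra3, 44.2% ± 3.25 for Gabra4, 59.4% ± 6.27 for Gabra5, 81.6% ± 0.772 for Gabrb1, 22.1% ± 2.18 for Gabrb2 and 80.5% ± 3.51 for Gabrd in controls (SD, n = 4). Gabrb2 thus had the largest part of its exon counts outside the first set of columns. In KO mice the Gabra2 share was 69.7% ± 2.89 (SD, n = 4), and exact two-sided permutation tests of the genotype difference gave p between 0.143 and 0.971 over the 7 genes (0.467 to 0.971 adjusted). The smallest p this design can give is 0.0286, so a difference in a single gene could not have passed adjustment, and these tests do not show that the shares were alike. In the exon columns Gabra2 had a fold change of -1.29 (adjusted p = 0.000489, edgeR), and in the counts left after subtracting the first set it had -1.33 (adjusted p = 0.000969, edgeR). The fall of Gabra2 RNA was thus of like size in both portions of the counts. For 424 genes the exon count was below the first count in a library, and the subtracted count was set to 0 there. The first set is thus not wholly a part of the exon set.

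The genes most like each subunit across the 14 libraries were found by Pearson's r of log2 CPM centred on each assay, among 8917 other genes with at least 10 CPM in both assays. These are descriptions with no test. The 14 libraries hold both genotypes, so genes that differ between genotypes in both assays have a high r with each other. For Gabra2 they were Ptpro (r = 0.987), a receptor-type protein tyrosine phosphatase, Serpina3n (0.984), a serine protease inhibitor of reactive astrocytes, and Hap1 (0.983), the huntingtin-associated protein that takes part in returning GABA-A receptors to the membrane. Over the 8 RNA libraries alone, r with Gabra2 was 0.975, 0.994 and 0.984. Control mice had 173 ± 18.5 CPM of Hap1 RNA (SD, n = 4), and in KO mice its level was 113 ± 3.52 CPM (SD, n = 4). For the other subunits the highest r was 0.901 for Gabra3 (with Trak1, a kinesin adaptor for mitochondria and GABA-A receptors), 0.954 for Gabra4 (Fth1, ferritin heavy chain), 0.926 for Gabra5 (Coq4, of coenzyme Q synthesis), 0.856 for Gabrb1 (Snrpe, a spliceosomal protein), 0.877 for Gabrb2 (Eif3e, an initiation factor subunit) and 0.914 for Gabrd (Mif, a cytokine). Between subunits, r over 14 libraries ranged from -0.847 (Gabra2 with Gabra4) to 0.640 (Gabra5 with Gabrd).

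Of 12 other GABA-A and GABA-rho subunit genes, 7 had enough counts to be tested. In footprints 3 of the 7 were called, all higher in KO mice, where 25.5% of all genes were called and 11.9% were called higher. This count was 1 with the RNA libraries in the same fit, and 2 with DESeq2 or without mouse 3. It was 4 on plain library sizes or without mouse 4, and every call was higher. Gabrg3, for the gamma3 subunit, rose by 0.29 ± 0.089 (SE, adjusted p = 0.00961, edgeR). It was not called with the RNA libraries in the same fit (adjusted p = 0.0503, edgeR), with DESeq2 (0.0839) or without mouse 3 (0.0992, edgeR). In RNA, where 7.41% of all genes were called, 1 of the 7, Gabrg1, was called, and with KO mice 2, 4 and 7 summed none was. In TE, where 7.81% of all genes were called, 2 of the 7 were called, both higher, among them Gabrg1 (0.40 ± 0.11 SE, adjusted p = 0.0255, edgeR). Gabra6, Gabrp, Gabrr1, Gabrr2 and Gabrr3 had too few counts. The TE call of Gabrg1 was lost in 6 of 20 alternatives. It ended after summing the RNA of KO mice 2, 4 and 7 (adjusted p = 0.111, edgeR). It also ended without mouse 1 (0.0869), 2 (0.107), 3 (0.0775), 7 (0.0551) or 10 (0.105). GABA-B receptor genes and their partners had 0 calls among 6 in RNA, footprints and TE, with edgeR and with DESeq2, with 1 in RNA, 2 in footprints and 2 in TE at an unadjusted p-value under 0.05 (edgeR). Other settings gave calls among the 6, with 1 higher in footprints with the title prefix as a block, on plain library sizes, with upper quartile factors and with limma voom, 1 lower in TE with mouse as a block, and 2 higher in RNA and 2 lower in TE in mice 1 to 4. Without control mouse 1 the footprints of 1 gene were called lower, and without control mouse 3 those of 1 gene were called higher.

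Of 17 clustering and adhesion genes of the inhibitory postsynapse, 8 were called lower and 1 higher in footprints, where 13.6% of all genes were called lower and 11.9% higher. The difference between these shares was not tested. The 17 genes had a median log2 fold change of -0.097, against 0.0054 over all genes. The largest falls were those of Mdga1 (-0.70 ± 0.14 SE, adjusted p = 6.36e-05, edgeR), which binds neuroligins, Shisa7 (-0.28 ± 0.065 SE, adjusted p = 0.000487, edgeR), an auxiliary protein of GABA-A receptors, and Magi2 (-0.24 ± 0.060 SE, adjusted p = 0.00116, edgeR), a scaffold. With the RNA libraries in the same fit 5 were called lower and none higher. In RNA none of the 17 was called by edgeR or DESeq2 over all mice, and 4 had an unadjusted p-value under 0.05 (edgeR). Some other settings did call genes of this list in RNA. Mice 1 to 4 alone gave 3 higher and 4 lower, and limma voom 1 higher and 2 lower. There was 1 higher without KO mouse 5 and in the exon columns, and 1 lower without control mouse 8. In TE, where 4.41% of all genes were called lower and 3.40% higher, 3 fell, namely Mdga1 (-0.49), Shisa7 (-0.46) and Nrxn2 (-0.30), with adjusted p-values of 0.0421, 0.00834 and 0.0330 (edgeR). The Mdga1 call was lost in 13 of 20 alternatives, among them DESeq2 (adjusted p = 0.0704) and the RNA of KO mice 2, 4 and 7 summed (0.0775, edgeR). The Nrxn2 call was lost in 9 of 20, with -0.19 in the exon columns (adjusted p = 0.200, edgeR), and the Shisa7 call in 1 of 20, without KO mouse 2 (0.0613, edgeR). With mouse as a block 8 of the 17 were called lower and 1 higher in TE, in a fit that called 1810 genes in all against 949 in the main fit. The fit to mice 1 to 4 alone also called 8 lower and 1 higher, with 1809 genes called in all. The larger counts were thus not particular to the block.

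Among 17 receptor trafficking genes tested in footprints, where 25.5% of all genes were called, 5 were called lower and 5 higher. Hap1 fell by 0.92 ± 0.053 (SE, adjusted p = 1.62e-28, edgeR), and the kinesin heavy chains Kif5a and Kif5c fell by 0.36 ± 0.030 and 0.33 ± 0.028 (SE, adjusted p = 5.69e-19 and 1.41e-17, edgeR). Trak2, Gabarapl1 and Gprc5b rose by 0.25, 0.23 and 0.22 (adjusted p = 0.0104, 2.85e-10 and 0.00876, edgeR). Gabarapl1 kept its call in all 13 alternatives. Trak2 lost its call in 5 of 13, with DESeq2 (adjusted p = 0.0842), without mouse 2 (0.123, edgeR), 3 (0.0981) or 4 (0.0526) and with the RNA libraries in the same fit (0.249). Gprc5b lost its call in 4 of 13, with DESeq2 (adjusted p = 0.0821), without mouse 3 (0.0711, edgeR) or 4 (0.0993) and with the RNA libraries in the same fit (0.184). In RNA Hap1 (-0.62 ± 0.071 SE, adjusted p = 0.000339, edgeR) and Gabarap (-0.25 ± 0.069 SE, adjusted p = 0.0422, edgeR), a microtubule-binding protein of receptor transport, fell among 18 genes tested, where 7.41% of all genes were called, and after summing KO mice 2, 4 and 7 Hap1 alone was called (-0.60, adjusted p = 0.0200, edgeR). The Gabarap call in RNA was lost in 11 of 20 alternatives. With the RNA libraries in the same fit, 3 trafficking genes were called lower and 1 higher in footprints. In TE, where 7.81% of all genes were called, Gabarap rose by 0.41 and Gabarapl1 by 0.31, while Kif5a fell by 0.61 and Kif5c by 0.43 (adjusted p = 0.00573, 0.00296, 0.00039 and 0.00013, edgeR).

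For GABA synthesis, release, uptake and breakdown, 4 of 11 genes were called in RNA, where 7.41% of all genes were, and 5 of 10 in footprints, where 25.5% were. Slc32a1, the vesicular GABA transporter, rose in RNA by 0.56 ± 0.069 (SE, adjusted p = 0.000412, edgeR) and fell in TE by 0.58 ± 0.085 (SE, adjusted p = 0.000168, edgeR). In the exon counts left after subtracting the first set of columns, Slc32a1 RNA was at 0.052 and was not called (adjusted p = 0.832, edgeR). Slc6a11, an astrocytic GABA transporter, rose in RNA by 0.30 (adjusted p = 0.0182, edgeR), and Slc6a12 and Slc6a13, transporters of the meninges and vessels, fell by 0.89 and 0.65 (adjusted p = 0.0383 and 0.00470, edgeR). The Slc6a11 call was lost in 6 of 20 alternatives, with 0.094 in the subtracted exon counts (adjusted p = 0.511, edgeR), the Slc6a12 call in 13 of 19 and the Slc6a13 call in 4 of 20. After KO mice 2, 4 and 7 were summed, Slc32a1 alone of the 11 was called (0.60, adjusted p = 0.0176, edgeR). In footprints Slc6a13, Aldh5a1 and Gad2 fell by 0.42, 0.27 and 0.18 (adjusted p = 0.0251, 0.000282 and 3.79e-06, edgeR), and Glul rose by 0.15 (adjusted p = 6.48e-07, edgeR). The Slc6a13 call in footprints was lost in 7 of 13 alternatives, among them DESeq2 (adjusted p = 0.140). With the RNA libraries in the same fit 1 of the 10 was called in footprints. In TE 1 of the 10 was called in the main fit, which called 949 genes or 7.81% of all. With mouse as a block 4 were called in TE, all lower, in the fit that called 1810 genes. The fit to mice 1 to 4 alone also called 4, all lower, among 1809 genes. Of 11 genes that set the chloride gradient, 3 were called in footprints, all lower, where 25.5% of all genes were called and 13.6% were called lower. These were Wnk1, Wnk2 and Slc12a5, the last being the neuronal chloride extruder KCC2. They fell by 0.46, 0.30 and 0.28 (adjusted p = 8.25e-12, 3.58e-06 and 1.44e-17, edgeR). The same 3 fell in TE, by 0.51, 0.56 and 0.33 (adjusted p = 0.000222, 6.34e-05 and 0.00836, edgeR), where 7.81% of all genes were called. Among the 11 only Wnk2 was called in RNA, where 7.41% of all genes were. Wnk2 RNA rose by 0.24 (adjusted p = 0.0108, edgeR), and summing KO mice 2, 4 and 7 ended that call (adjusted p = 0.171, edgeR). In the subtracted exon counts Wnk2 RNA was at -0.12 and was not called (adjusted p = 0.715, edgeR).

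Marker genes of cell types and of neighbouring regions were read beside these values. Summed over the 13 inhibitory neuron markers, which share 3 genes with the GABA synthesis list, the level was 981 to 1077 CPM in control RNA and 1037 to 1168 CPM in KO RNA, and 2112 to 2180 CPM and 2311 to 2347 CPM in footprints. The 13 excitatory neuron markers summed to 2649 to 2987 CPM in control RNA and 3219 to 3555 CPM in KO RNA, and to 4853 to 4953 CPM and 4570 to 4734 CPM in footprints. Hippocampal markers, 10 genes, were at 379 to 416 CPM in control RNA and 334 to 381 CPM in KO RNA, and at 406 to 429 CPM and 319 to 336 CPM in footprints, without overlap. Thalamic markers, 10 genes, were at 154 to 163 and 140 to 160.3 CPM in RNA and at 175 to 202 and 164 to 170 CPM in footprints. Striatal markers, 9 genes, were at 864 to 980 and 958 to 1002 CPM in RNA and at 1372 to 1413 and 1533 to 1591 CPM in footprints. Oligodendrocyte markers, 11 genes, were at 5237 to 5757 CPM in control RNA and 4628 to 4972 CPM in KO RNA, and at 9002 to 9160 CPM and 8811 to 8855 CPM in footprints. Choroid plexus markers, 7 genes, were at 12.5 to 285 CPM in control RNA and 8.19 to 122 CPM in KO RNA, and at 17.4 to 21.9 CPM and 8.30 to 13.9 CPM in footprints, without overlap. In footprints the genotypes did not overlap in any of these sums. In RNA they were apart only for excitatory neurons and oligodendrocytes. Neuron and oligodendrocyte genes moved both ways within a list, so a sum need not show a shift in cell content. In RNA 8 excitatory genes were higher and 5 lower, and in footprints 7 and 6. Of the inhibitory genes 8 were higher and 5 lower in each assay. Of the oligodendrocyte genes 3 were called higher and 5 lower in footprints. Whether shifts in these sums have a part in the differences of the subunits or of Slc6a13 and the other listed genes was not tested. No excitatory or inhibitory neuron marker was at 0 in all libraries.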

How the data were processed

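Cortex of Fmr1 KO and control mice was profiled by RNA-seq and ribosome profiling. The authors deposited raw counts per gene in 1 table, with a second set of RNA columns marked exon. The submitters' processing notes name Bowtie2, STAR 2.5, featureCounts, Subread 1.4.6 and the builds mm9 and mm10, and which build and strand setting gave the counts is not given in the sources used here. Counts were tested with edgeR 4.0.16 (R 4.3.3; TMM, minimum count 10, quasi-likelihood F test, Benjamini-Hochberg adjustment over all genes tested, threshold 0.05), separately for RNA and footprints, and as an interaction over all 14 libraries for TE. The procedure was tested on simulated data. DESeq2 1.42.0, limma 3.58.1 and other scalings, filters and sample sets were alternatives. The 2849 genes without a value in the footprint and first RNA columns were left out. All 7 subunits and up to 3 called genes with the largest rise and fall per list and comparison are named, except a few that are not reported here. The subunits and lists were chosen with earlier results of these data known. The labels give mouse numbers 1 to 4 in both assays, and these were taken as the same animals. The pairing rests on the labels alone: the RNA and footprint deviations of these mice correlated at -0.0124 to 0.0353 over 12145 genes, which gives no sign of it in the data. Levels per coding length, planned as a description, were not computed because coding lengths were not used here. Upstream sequences are from RefSeq (GRCm38.p6).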

Additional observations from a re-analysis of the deposited data

Results flagged for a closer look

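Among 28 groups of 4 libraries examined for a library far from the others, 2 held one, where chance gives about 1.4. The share of Gabrd exon counts held by the first set of RNA columns was 85.7% in control mouse 8, against 78.2% to 79.3% in the other controls. Gabrb1 RNA was at 94.5 CPM in KO mouse 5, against 77.7 to 79.5 CPM in the other KO mice.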

How the results depend on the processing

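Gabra2 stayed called and lower in all 20 RNA alternatives (log2 fold change -1.53 to -0.97, adjusted p 6.02e-15 to 0.0312) and all 13 footprint alternatives (-1.75 to -1.67). Counts of all genes called depended more on the processing, and the cause was not tested. In RNA, 1001 genes became 2686 with limma voom, 88 in mice 5 to 8, 3273 in mice 1 to 4 (3 subunits called), 316 in exon minus first-column counts, 79 with KO mice 2, 4 and 7 summed, 36 with control mice 1 and 3 also summed, and 356 to 1763 without each replicate in turn. In footprints, 3102 became 1801 with DESeq2 and 1673 with 1 fit over all libraries (1 subunit called in each), and leaving out each replicate gave 2558 to 2855 genes and 1 to 4 subunits. In TE, 949 became 1903 with limma voom (2 subunits), 1809 in mice 1 to 4 (1 subunit), 543 after summing the RNA of KO mice 2, 4 and 7 and 419 to 1289 without each replicate (0 to 1 subunits), and 1 subunit was called with plain library sizes and with upper quartile factors. Calls higher in KO mice made up 46.7% in footprints and 66.3% on plain library sizes, and 43.5% in TE, 67.6% on plain library sizes and 58.3% with upper quartile factors.

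With mouse as a replicate block in TE, 1810 genes and 1 subunit (Gabra3) were called, and Gabra4 (-0.0065), Gabra5 (-0.15) and Gabrb1 (0.073) changed sign. Mice 1 to 4 alone gave nearly the same values, with 1809 genes and Gabra3 called and the same 3 signs changed. These moves were thus not particular to the block. With the title prefix as a replicate block, RNA gave 958 called genes, footprints gave 3199 and TE gave 787, Gabra2 RNA was at -1.26, none of the 7 subunits' calls changed, and Gabrg1 lost its RNA call (adjusted p = 0.0527).

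Small differences changed sign in other settings. Gabrb1 RNA was at 0.048 in mice 5 to 8, 0.023 in exon columns, 0.15 in exon minus first-column counts, 0.044 with KO mice 2, 4 and 7 summed, 0.043 with control mice 1 and 3 also summed, and -0.085 to 0.0084 without each replicate (0.0018 without KO mouse 7). Gabra5 RNA was at 0.21 in mice 1 to 4 and -0.23 to 0.026 without each replicate. In exon minus first-column counts Gabra3 was at -0.029, Gabra4 at -0.021, Gabrb2 at 0.0014 and Wnk2 at -0.12. In footprints Gabrb1 was at 0.043 on plain library sizes and -0.077 to 0.021 without each replicate (0.013 without KO mouse 2), and Gabra5 at -0.053 to 0.089. In TE Gabrb1 was at 0.057 on plain library sizes, 0.029 with upper quartile factors, 0.063 with limma voom, 0.075 in mice 1 to 4 and -0.064 to 0.063 without each replicate, and in mice 1 to 4 Gabra4 was at -0.0062 and Gabra5 at -0.16.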
